A study of Rattus norvegicus with 18 samples.

Results

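Messenger RNA was compared between dorsal root ganglia of rats carrying a neuropathic pain model and given herb (group NPP_herb, 3 libraries) and ganglia of sham rats given herb (group Sham_herb, 3 libraries). These 6 libraries are the members of the comparison, out of 18 in the series, and they were chosen by their labels alone. The herb is Shentong Zhuyu decoction, a traditional Chinese preparation of 12 ingredients, according to the study's design text, and both groups received it. The other 12 libraries, 3 per group, came from NPP and Sham rats given solvent, and from Ctrl rats with and without solvent. The sources used here state neither the strain, age or sex of the rats, nor how the pain model was made, the dose of the decoction or when ganglia were taken. They also leave unsaid whether each library is a separate animal, and p-values therefore reflect the spread among these samples, which may be technical.

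The dorsal root ganglion holds the cell bodies of sensory neurons, wrapped by satellite glia, with axons sheathed by Schwann cells and with resident macrophages, fibroblasts and vessels around them. When a peripheral axon is damaged, the neuron switches on a known injury program, with transcription factors such as Atf3, neuropeptides such as galanin and neuropeptide Y, and genes of axon growth, while many channel and receptor genes of the intact neuron are turned down. Immune and glial genes of the ganglion also respond in many nerve injury models. In whole tissue, fewer cells of a type and less RNA per cell cannot be told apart.

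The 6 libraries held 18334197 to 34671490 reads assigned to genes, and each held reads of 19672 to 20815 genes. NPP_herb replicates 1 and 2 were the shallowest, at 18334197 and 18390380 reads. Defining genes of ganglion tissue were abundant in all 6 libraries: the 14 genes common to neurons summed to 7823 to 9389 FPKM in NPP_herb, against 7716 to 8899 FPKM in Sham_herb, where FPKM are the authors' values scaled to gene length and library size. Levels are given as CPM, read counts scaled to the size of each library, and they compare 1 gene between libraries, not 1 gene with another. The median correlation of log2 CPM over genes was 0.980 for pairs of libraries of the same group and 0.981 for pairs of different groups. Several libraries stood apart from the others of their own group. In genes of the nerve injury program, NPP_herb replicate 3 was at the level of Sham_herb replicates 1 and 2, and Sham_herb replicate 3 was above both other sham libraries. In genes induced by interferon, Sham_herb replicates 1 and 2 were high and Sham_herb replicate 3 was not. By these injury genes NPP_herb replicate 3 goes against its label, and Sham_herb replicate 3 does so in part. The median injury gene level of Sham_herb replicate 3, relative to each gene's mean, was 0.07 on the log2 scale. It was 0.16 and 0.45 in NPP_herb replicates 1 and 2. Whether these libraries carry each other's label was not tested, the labels were kept as given, and every group value below depends on them. The injury, interferon and immediate early lists, the leading injury genes and the other lists are given below with single libraries left out.

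No gene passed the test between NPP_herb and Sham_herb. With edgeR's quasi-likelihood test and Benjamini-Hochberg adjustment, 0 of 17043 genes had an adjusted p under 0.05 (0%), and the smallest adjusted p was 0.228, for LOC120102105, a ribosomal RNA gene. At an unadjusted p under 0.05 there were 238 genes (1.4%), of which 138 were higher and 100 lower in NPP_herb. DESeq2 called 2 genes, LOC120102105 and Rn45s, named here after their values were seen, and limma voom called 0. In 1252 genes (7.35%) all 3 NPP_herb libraries lay on one side of all 3 Sham_herb libraries, 542 of them higher (3.18%) and 710 lower (4.17%). A positive log2 fold change of NPP_herb over Sham_herb was seen in 8363 genes (49.1%), with a median over all genes of -0.0033. The gene lists below are therefore described by their counts and medians beside these figures, and single genes by their values in each library. These lists were chosen with earlier results of these data known, so their counts beside the shares over all genes are a description.

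Genes of the nerve injury program varied from library to library within each group. Their median level relative to each gene's mean was 0.16, 0.45 and -0.29 in NPP_herb replicates 1, 2 and 3, against -0.22, -0.21 and 0.07 in Sham_herb replicates 1, 2 and 3, on the log2 scale. Of 52 genes in the lists of transcription factors, neuropeptides and growth genes that axon damage induces or alters, 48 had enough reads to be tested. Of these 48, 43 had a positive log2 fold change and 5 a negative one, with a median of 0.32. Only Ecel1 had an unadjusted p under 0.05, against 0.81% of all genes in that direction, and in 2 of the 48 genes the groups did not overlap, Ecel1 and Tac1, both higher in NPP_herb, against 3.18% of all genes. That count is close to the share over all genes. The 4 members not tested were Reg3g, Il6 and Nps, which had at most 10 reads in any library, and Klf7, which has no entry in the count table used here.

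Atf3, on chromosome 13, encodes the transcription factor most widely used to mark injured sensory neurons. It was at 50.9, 107 and 10.8 CPM in NPP_herb replicates 1, 2 and 3, against 11.6, 10.7 and 54.5 CPM in Sham_herb replicates 1, 2 and 3. Thus NPP_herb replicate 3 was as low as the 2 lowest sham libraries, Sham_herb replicate 3 was slightly above NPP_herb replicate 1, and the groups overlapped. The log2 fold change was 1.13 ± 1.00 (SE), with an unadjusted p of 0.281. Gadd45a, a stress gene that acts in DNA repair and cell cycle arrest, was at 55.9, 105 and 34.5 CPM in NPP_herb, against 38.7, 43.9 and 57.4 CPM in Sham_herb. Cdkn1a, which encodes the cell cycle inhibitor p21, was at 7.04, 12.3 and 3.60 CPM in NPP_herb, against 3.64, 4.02 and 6.18 CPM in Sham_herb. In both genes NPP_herb replicate 2 was the highest library and NPP_herb replicate 3 the lowest. Jun, which encodes an AP-1 subunit needed for axon regrowth, was at 111, 133 and 93.2 CPM in NPP_herb, against 81.2, 77.5 and 110 CPM in Sham_herb. Of the 14 transcription genes tested, 11 had a positive log2 fold change, with a median of 0.20.

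The neuropeptides showed the widest spread. Npy encodes neuropeptide Y, which is nearly silent in intact sensory neurons and is made by large neurons after axon damage. It was at 62.0, 173 and 1.23 CPM in NPP_herb replicates 1, 2 and 3, against 1.65, 1.75 and 112 CPM in Sham_herb replicates 1, 2 and 3. Each group thus held libraries near 1 to 2 CPM and libraries above 60 CPM, and the log2 fold change of 1.03 had an SE of 2.02. Gal, which encodes galanin, was at 25.8, 76.5 and 7.79 CPM in NPP_herb, against 8.06, 6.49 and 15.3 CPM in Sham_herb. Here NPP_herb replicates 1 and 2 were above every sham library, and replicate 3 was inside the sham range. The log2 fold change of Gal was 1.87 ± 0.87 (SE), with an unadjusted p of 0.0513. Vip, which encodes vasoactive intestinal peptide, was at 9.78, 17.1 and 0.171 CPM in NPP_herb, against 0.434, 0.987 and 2.65 CPM in Sham_herb. The highest sham library was again replicate 3, and the lowest of all 6 was NPP_herb replicate 3. Tac1, which encodes substance P, was at 119, 149 and 108 CPM in NPP_herb, against 106, 107 and 107 CPM in Sham_herb. The Tac1 groups did not overlap, but NPP_herb replicate 3 was close to the sham libraries, and the log2 fold change was 0.23 ± 0.17 (SE). All 11 neuropeptide genes had a positive log2 fold change, with a median of 0.32. The list is not of 1 direction, since axon damage is known to induce galanin, neuropeptide Y and Vip and to lower Tac1 and Calca.

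Genes of axon growth and repair followed the same libraries. Sprr1a encodes a small proline-rich protein that regrowing sensory axons make. It was at 1.18, 2.40 and 0.0285 CPM in NPP_herb, which is 22, 43 and 1 reads, against 0.0289, 0 and 0.818 CPM in Sham_herb, which is 1, 0 and 25 reads. NPP_herb replicates 1 and 2 and Sham_herb replicate 3 thus held nearly all of its reads. Ecel1, a damage-induced neuronal endopeptidase, was at 6.50, 10.5 and 2.94 CPM in NPP_herb, against 1.85, 2.47 and 2.52 CPM in Sham_herb. Its groups did not overlap, and its log2 fold change was 1.54 ± 0.56 (SE), with an unadjusted p of 0.015. Without NPP_herb replicate 2, the highest library, its log2 fold change was 1.04 and its unadjusted p 0.0930. Gap43, a growth cone protein, was at 403, 637 and 319 CPM in NPP_herb, against 353, 317 and 411 CPM in Sham_herb. Reg3b, a secreted lectin made by injured sensory neurons, was at 2.58, 15.8 and 0.913 CPM in NPP_herb, against 1.82, 0.493 and 2.52 CPM in Sham_herb. Of the 23 growth and repair genes tested, 21 had a positive log2 fold change, with a median of 0.33.

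**Figure D1:**
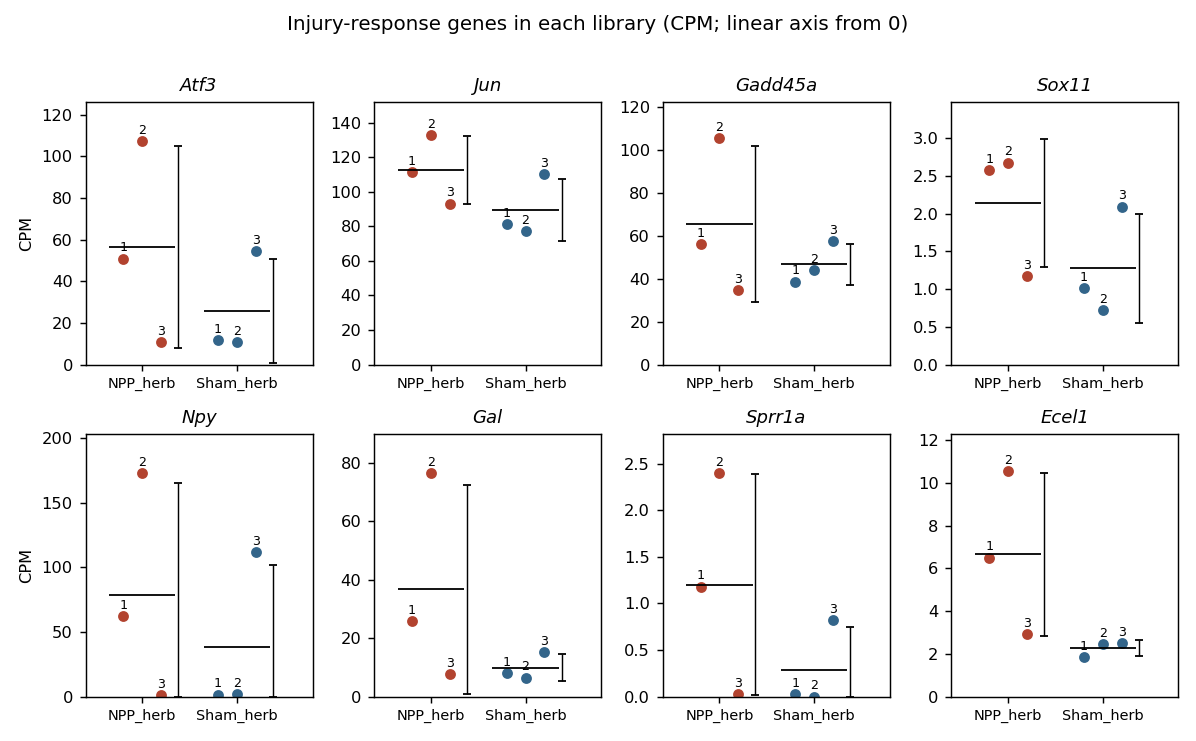
Level of 8 injury-response genes in CPM (linear axis from 0) in NPP_herb (left) and Sham_herb (right). Each point is a library with its replicate number, the black line is the mean and the bar at the right of each group is the SD over 3 libraries. Atf3, Npy and Sprr1a were high in NPP_herb replicates 1 and 2 and in Sham_herb replicate 3, and low in the other 3 libraries.

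The same 3 libraries, NPP_herb replicates 1 and 2 and Sham_herb replicate 3, were the 3 highest of the 6 in 27 of the 48 injury genes (7 transcription genes, 7 neuropeptides and 13 growth genes). Over all tested genes this set was the highest 3 in 985 (5.78%). The set was picked from injury genes that are themselves among the 48, so its count describes the list and is no separate support. NPP_herb replicate 2 alone was the highest library in 37 of the 48. The size of the group difference therefore moved with single libraries. With 49 genes testable after leaving out a library, the median was 0.08, with 32 genes positive, without NPP_herb replicate 2, and 0.52, with 46 positive, without NPP_herb replicate 3. Without Sham_herb replicate 3 the median was 0.49, with 41 positive and 5 genes higher at an unadjusted p under 0.05, against 0.995% of all genes in that fit. With replicate 3 left out of both groups, the median was 0.63 and 16 of 49 genes were higher at an unadjusted p under 0.05, against 1.4% of all genes in that fit. There the log2 fold change was 2.82 for Atf3 (unadjusted p 0.0238), 6.11 for Npy (0.0401), 2.81 for Gal (0.0151), 4.26 for Vip (0.0440) and 6.44 for Sprr1a (0.0187). Both libraries left out in it are those that go against their labels by these same injury genes, Sham_herb replicate 3 in part. A larger difference without them follows in part from that choice, and these p-values are only a description. With replicate 2 left out of both groups, the median was 0.02 and 25 of 49 were positive. No injury gene passed the adjusted test in any of these settings.

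Immediate early genes, which respond quickly to a stimulus or to tissue handling, were mostly higher in NPP_herb. Of 24 tested, 22 had a positive log2 fold change, with a median of 0.38, and 5 had an unadjusted p under 0.05 (Klf2, Klf4, Fos, Fosb and Junb), against 0.81% of all genes in that direction. Fos, whose protein pairs with Jun in AP-1, was at 7.15, 13.4 and 2.74 CPM in NPP_herb replicates 1, 2 and 3, against 2.08, 2.28 and 2.75 CPM in Sham_herb. NPP_herb replicate 3 was at the sham level and the groups overlapped by a small margin. The log2 fold change of Fos was 1.70 ± 0.63 (SE), with an unadjusted p of 0.0173. Fosb, a close relative of Fos, was at 3.12, 11.3 and 0.514 CPM in NPP_herb, against 0.405, 0.304 and 0.687 CPM in Sham_herb. It had a log2 fold change of 3.38 ± 1.07 (SE), with an unadjusted p of 0.00655. Junb, another AP-1 subunit, was at 17.4, 29.4 and 13.0 CPM in NPP_herb, against 10.8, 13.1 and 11.8 CPM in Sham_herb. NPP_herb replicate 2 was the highest library in 15 of the 24 genes. Without it the median was 0.22, 19 of 24 were positive and 1 was higher at an unadjusted p under 0.05, against 0.934% of all genes in that fit. Without NPP_herb replicate 3 the median was 0.61, 21 of 24 were positive and 10 were higher at an unadjusted p under 0.05, against 1.31% of all genes.

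Klf2 and Klf4 stood apart from Fos in that their groups did not overlap. Klf2, on chromosome 16, encodes a transcription factor best known from endothelial cells, where blood flow induces it. It was at 3.12, 2.68 and 3.03 CPM in NPP_herb, against 1.16, 1.59 and 1.37 CPM in Sham_herb. The 3 NPP_herb libraries lay close together, and the log2 fold change was 1.10 ± 0.33 (SE), with an unadjusted p of 0.00406. Klf4, a related factor of vessels and differentiating cells, was at 8.44, 13.3 and 7.05 CPM in NPP_herb, against 5.15, 6.49 and 6.28 CPM in Sham_herb. Its log2 fold change was 0.68 ± 0.23 (SE), with an unadjusted p of 0.00904. Without NPP_herb replicate 2, the highest library for Klf4, these were 0.38 and 0.109 in the same edgeR test. Endothelial marker genes as a list did not lean to either group, with 7 of 14 positive and a median of 0.01, although the median was -0.12 without NPP_herb replicate 1.

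Other genes were picked for the smallest unadjusted p among those without overlap between groups, a rule that favours genes with little spread within a group. A2m, on chromosome 4, encodes alpha-2-macroglobulin, a protease inhibitor that in rat is a classic acute-phase protein of the liver. It was at 55.2, 52.6 and 56.9 CPM in NPP_herb, against 37.6, 31.8 and 33.1 CPM in Sham_herb, with a log2 fold change of 0.68 ± 0.21 (SE) and an unadjusted p of 0.00533. Igfbp2, on chromosome 9, encodes a protein that binds insulin-like growth factors. It was at 44.8, 47.1 and 55.7 CPM in NPP_herb, against 28.9, 29.9 and 29.2 CPM in Sham_herb, with a log2 fold change of 0.75 ± 0.24 (SE) and an unadjusted p of 0.00704. For these genes even the lowest NPP_herb library was well above the highest sham library. Ngfr was not picked by this rule but from the lists of neurotrophin receptors and of Schwann cell repair. It encodes the p75 neurotrophin receptor of sensory neurons, glia and Schwann cells. Ngfr was at 609, 651 and 764 CPM in NPP_herb, against 555, 559 and 585 CPM in Sham_herb. The log2 fold change of Ngfr was 0.25 ± 0.10 (SE), with an unadjusted p of 0.020. Gjb2, which encodes the gap junction protein connexin 26, was at 4.41, 4.13 and 3.68 CPM in NPP_herb, against 2.17, 3.04 and 1.96 CPM in Sham_herb. Lrrc32, which presents latent TGF-beta on the cell surface, was at 7.58, 5.41 and 5.65 CPM in NPP_herb, against 3.09, 4.74 and 4.19 CPM in Sham_herb.

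The same rule picked 12 genes with lower values in NPP_herb. Tram1l1, on chromosome 2, encodes a protein related to a component of the protein translocation site of the endoplasmic reticulum. It was at 15.2, 18.1 and 16.1 CPM in NPP_herb, against 22.7, 21.4 and 21.9 CPM in Sham_herb, with a log2 fold change of -0.42 ± 0.12 (SE) and an unadjusted p of 0.00262. Med17, a subunit of the Mediator complex of transcription, was at 19.2, 15.5 and 16.8 CPM in NPP_herb, against 23.4, 22.2 and 20.8 CPM in Sham_herb. Both genes had all 3 NPP_herb libraries below all 3 sham libraries. Pik3c3, the lipid kinase that starts autophagosome formation, was at 63.4, 65.9 and 77.2 CPM in NPP_herb, against 83.5, 79.9 and 82.3 CPM in Sham_herb. Wdr45, another autophagy gene, was at 22.6, 23.4 and 19.4 CPM in NPP_herb, against 28.0, 26.4 and 27.1 CPM in Sham_herb. Nudt7, a peroxisomal enzyme that cleaves coenzyme A, was at 16.5, 16.0 and 18.1 CPM in NPP_herb, against 29.1, 19.4 and 27.2 CPM in Sham_herb. The log2 fold changes of these 12 genes ran from -0.83 to -0.25.

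**Figure D2:**
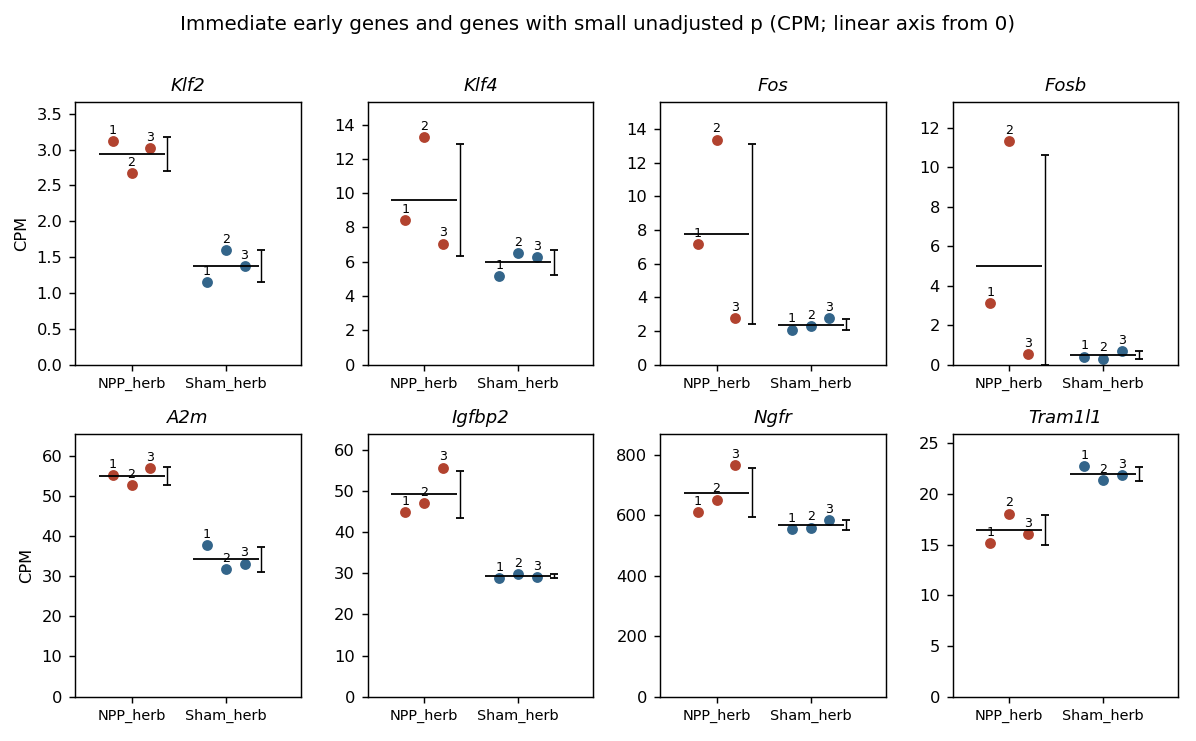
Level of 4 immediate early genes (Klf2, Klf4, Fos and Fosb) and of A2m, Igfbp2, Ngfr and Tram1l1 in CPM (linear axis from 0) in NPP_herb (left) and Sham_herb (right). Each point is a library with its replicate number, the black line is the mean and the bar is the SD over 3 libraries. The groups did not overlap in Klf2, Klf4, A2m, Igfbp2, Ngfr and Tram1l1, while Fos and Fosb in NPP_herb replicate 3 were at the sham level.

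Genes induced by interferon were lower in NPP_herb throughout the list, and their highest values were in Sham_herb replicates 1 and 2. Type I interferons switch on antiviral genes, many of which carry interferon-stimulated response elements in their promoters. All 36 tested genes of the list had a negative log2 fold change (range -2.10 to -0.08), with a median of -0.88. None had an unadjusted p under 0.05, against 0.587% of all genes in that direction, and in 8 of 36 the groups did not overlap, all lower, against 4.17% of all genes.

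The start regions of 4 of these genes are shown because they carry matches to the response element. Oas1b, Gbp2 and Ifi44l had the smallest unadjusted p among genes with a match and a mean of at least 1 CPM. Irf7 was added by name, ahead of Oas1a, which also held a match and had a smaller unadjusted p. Each is the 250 bases before the annotated start, read 5′ to 3′ on the gene's strand, from RefSeq on build GRCr8, and capitals mark the matches to GAAANNGAA or its reverse complement. Oas1b lies at chr12:41395853-41396102 (minus strand), Gbp2 at chr2:234005477-234005726 (plus strand), Ifi44l at chr2:243328473-243328722 (plus strand) and Irf7 at chr1:205800024-205800273 (minus strand).
Oas1b: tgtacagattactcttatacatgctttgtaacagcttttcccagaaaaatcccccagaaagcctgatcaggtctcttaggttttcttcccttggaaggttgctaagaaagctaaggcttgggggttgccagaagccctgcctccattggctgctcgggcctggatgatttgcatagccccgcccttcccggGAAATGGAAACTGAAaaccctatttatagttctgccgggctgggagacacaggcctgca
Gbp2: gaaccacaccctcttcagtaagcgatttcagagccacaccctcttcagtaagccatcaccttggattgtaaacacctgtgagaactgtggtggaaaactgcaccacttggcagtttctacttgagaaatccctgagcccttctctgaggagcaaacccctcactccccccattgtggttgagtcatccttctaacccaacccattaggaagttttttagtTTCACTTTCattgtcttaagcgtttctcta
Ifi44l: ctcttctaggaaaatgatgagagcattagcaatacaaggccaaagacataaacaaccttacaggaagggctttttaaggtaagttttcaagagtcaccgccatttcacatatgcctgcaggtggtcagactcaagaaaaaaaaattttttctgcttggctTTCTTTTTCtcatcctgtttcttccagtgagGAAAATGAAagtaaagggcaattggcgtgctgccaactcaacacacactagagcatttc
Irf7: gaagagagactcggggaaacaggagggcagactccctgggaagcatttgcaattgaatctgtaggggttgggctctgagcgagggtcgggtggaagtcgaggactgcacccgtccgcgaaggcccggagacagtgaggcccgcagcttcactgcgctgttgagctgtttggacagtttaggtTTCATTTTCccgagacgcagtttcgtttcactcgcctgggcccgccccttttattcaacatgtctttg
Both matches in Oas1b overlap each other. Over all genes of the list whose start region was available, 18 of 25 held a match, and over all start regions of the same length 2717 of 33469 did (8.12%). The motif and Ifi44l were chosen after the values were seen, and a match is a description of the sequence. The planned search was of injury genes, for binding motifs named AP-1, CRE and STAT. It found them in 4, 0 and 3 of 30 start regions, against 6.34%, 1.59% and 7.67% of all start regions.

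Isg15, on chromosome 5, encodes a ubiquitin-like protein and is among the most responsive interferon targets. It was at 5.43, 5.35 and 3.996 CPM in NPP_herb replicates 1, 2 and 3, against 33.4, 22.0 and 4.84 CPM in Sham_herb replicates 1, 2 and 3. Irf7, a transcription factor that amplifies interferon production, was at 10.8, 9.98 and 12.3 CPM in NPP_herb, against 59.9, 32.4 and 8.60 CPM in Sham_herb. In both genes Sham_herb replicates 1 and 2 were well above the other 4 libraries, and Sham_herb replicate 3 was inside or near the NPP_herb range. Rtp4, which encodes a receptor transporter induced by interferon, was at 7.31, 3.51 and 5.11 CPM in NPP_herb, against 33.4, 18.7 and 5.85 CPM in Sham_herb. Gbp2, a guanylate-binding protein that also responds to interferon-gamma, was at 36.7, 19.96 and 22.4 CPM in NPP_herb, against 50.5, 119 and 25.4 CPM in Sham_herb. Oas1b, an antiviral gene of the oligoadenylate synthetase family, was at 4.84, 2.45 and 4.37 CPM in NPP_herb, against 27.0, 11.003 and 3.66 CPM in Sham_herb. Oas1b had the smallest unadjusted p of the list, 0.134, with a log2 fold change of -1.83 ± 1.14 (SE). Its reads are uncertain, since the near-identical copy Oas1a may share them. The highest library was Sham_herb replicate 1 in 23 of the 36 genes and Sham_herb replicate 2 in the other 13. The median was -0.64 without Sham_herb replicate 1, -0.70 without replicate 2 and -1.21 without replicate 3. In a fit of the 6 libraries alone, whose spread came from these libraries only, 23 of 35 genes were lower at an unadjusted p under 0.05, against 0.947% of all genes in that fit, and none passed the adjusted test. Cxcl10, a chemokine induced by interferon, was at 4.35, 3.79 and 3.42 CPM in NPP_herb, against 7.75, 17.0 and 3.11 CPM in Sham_herb, and thus followed the same libraries.

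Genes of red blood cells and neutrophils had higher values in NPP_herb, most of all in replicate 3. Of 16 red cell genes tested, 14 had a positive log2 fold change, with a median of 2.78, and in 10 the groups did not overlap, all higher, against 3.18% of all genes. Hbb, on chromosome 1, encodes the beta chain of hemoglobin. It was at 41.8, 57.4 and 253 CPM in NPP_herb replicates 1, 2 and 3, against 10.2, 25.4 and 16.7 CPM in Sham_herb. Slc4a1, the anion exchanger of the red cell membrane, was at 0.645, 0.669 and 6.88 CPM in NPP_herb, against 0.116, 0.379 and 0.196 CPM in Sham_herb. Rhd, a blood group antigen of the red cell membrane, was at 0.645, 0.390 and 1.26 CPM in NPP_herb, against 0, 0.190 and 0.0327 CPM in Sham_herb. These 3 genes did not overlap between groups, and NPP_herb replicate 3 was the highest library in 14 of the 16. Slc4a1 and Rhd had unadjusted p of 0.0261 and 0.00295. The 6 hemoglobin genes together took 0.0134%, 0.0186% and 0.0750% of reads in NPP_herb, against 0.00354%, 0.00678% and 0.00462% in Sham_herb. An exact two-sided permutation test of that share gave p = 0.1, the smallest that 3 libraries against 3 allow. Reads of the hemoglobin genes may be shared among near-identical copies. Without NPP_herb replicate 3 the red cell median was 1.52, with 14 of 16 positive. In the fit of the 6 libraries alone 10 of 15 red cell genes were higher at an unadjusted p under 0.05, against 1.46% of all genes in that fit, and none passed the adjusted test.

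Of 15 neutrophil genes tested, all 15 had a positive log2 fold change, with a median of 0.89 and no unadjusted p under 0.05. S100a8, a calcium-binding protein abundant in neutrophils, was at 25.4, 35.7 and 34.5 CPM in NPP_herb, against 11.2, 35.02 and 20.02 CPM in Sham_herb, so that the groups overlapped. Without NPP_herb replicate 3 the neutrophil median was 0.33, with 12 of 15 positive. Macrophage genes had a median of 0.11 (17 of 24 positive), genes of T, B and natural killer cells -0.25 (5 of 13 positive), MHC class II genes 0.24 (8 of 10 positive) and complement genes 0.03 (14 of 24 positive). Within the sham group the MHC class II and macrophage lists were lowest in replicate 1 and highest in replicate 2, and these medians moved with them. Without Sham_herb replicate 1 the median was -0.03 for macrophage genes, 0.0094 for MHC class II genes and -0.07 for complement genes. Without Sham_herb replicate 2 it was 0.39 for macrophage genes, 0.78 for MHC class II genes and 0.16 for complement genes. For genes of T, B and natural killer cells it was 0.45 (14 of 17 positive) without Sham_herb replicate 2, 0.15 (9 of 17 positive) without Sham_herb replicate 3, 0.26 (5 of 8 positive) in the fit of the 6 libraries and 0.22 (11 of 19 positive) with no filter on low counts, so that this list had no stable sign. The part of blood content in the other results was not tested.

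Ribosomal RNA genes had the smallest unadjusted p among the genes that the naming rule picked. Rn45s, the ribosomal RNA precursor, was at 1413, 2537 and 4079 CPM in NPP_herb, against 809, 877 and 696 CPM in Sham_herb. Its log2 fold change was 1.75 ± 0.35 (SE), with an unadjusted p of 0.000191, and DESeq2 called it. All annotated ribosomal RNA genes outside mitochondria took 0.151%, 0.255% and 0.451% of reads in NPP_herb, against 0.0837%, 0.0921% and 0.0726% in Sham_herb (exact two-sided permutation p = 0.1, the smallest possible). The share was 0.280%, 0.226% and 0.326% in Ctrl, which is inside the NPP_herb range. It was 0.158%, 0.123% and 0.132% in Ctrl_solvent, 0.0903%, 0.0988% and 0.117% in NPP_solvent, and 0.198%, 0.119% and 0.0772% in Sham_solvent. The libraries were made by capture of messenger RNA, so this share measures ribosomal RNA carried through that step, and its copies are near-identical. Whether it bears on other genes was not tested.

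**Figure D3:**
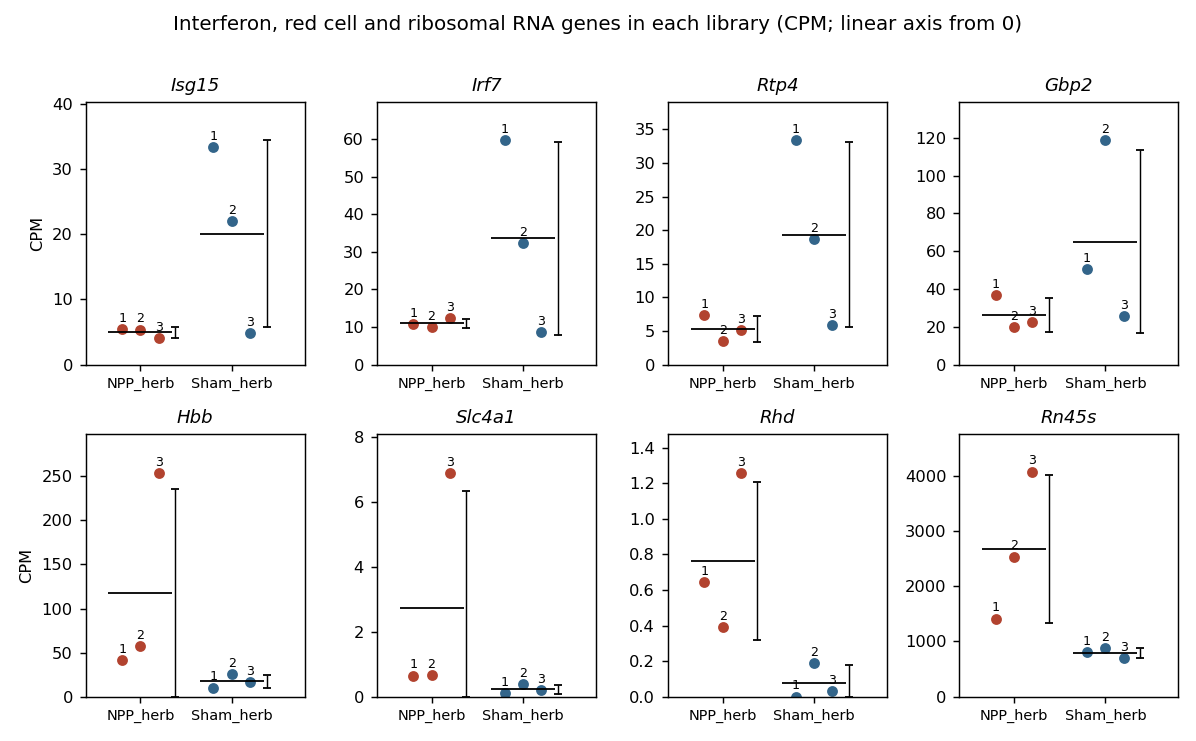
Level of interferon-induced genes (Isg15, Irf7, Rtp4, Gbp2), red cell genes (Hbb, Slc4a1, Rhd) and the ribosomal RNA gene Rn45s in CPM (linear axis from 0) in NPP_herb (left) and Sham_herb (right). Each point is a library with its replicate number, the black line is the mean and the bar is the SD over 3 libraries, cut at 0 where it would go below. Sham_herb replicates 1 and 2 were the highest libraries in the interferon genes, and NPP_herb replicate 3 in the red cell genes and Rn45s.

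Genes of intact sensory neurons had list medians close to 0, and their signs changed with single libraries. Nociceptor genes had a median log2 fold change of -0.03 (13 of 28 positive), sodium channel genes -0.03 (4 of 14), potassium channel genes -0.05 (11 of 26), calcium channel genes -0.0035 (7 of 15) and genes of large-diameter neurons -0.04 (3 of 15), while 3 of 4 pacemaker channel genes were positive, with a median of 0.09. Without NPP_herb replicate 3 the medians were -0.11 for nociceptor genes, -0.20 for sodium channel genes (2 of 14 positive), -0.16 for potassium channel genes, -0.09 for calcium channel genes, -0.13 for genes of large-diameter neurons and -0.13 for pacemaker channel genes. Without NPP_herb replicate 2 they were 0.02, 0.03 (8 of 14 positive), 0.0089, 0.04, 0.01 and 0.26 in the same order of lists. Trpv1, the capsaicin and heat receptor, was at 72.8, 63.4 and 108 CPM in NPP_herb, against 81.0, 83.6 and 76.9 CPM in Sham_herb. Scn10a, the sodium channel Nav1.8 of nociceptors, was at 254, 276 and 403 CPM in NPP_herb, against 293, 315 and 316 CPM in Sham_herb. In both, NPP_herb replicate 3 was the highest of the 6 libraries and NPP_herb replicates 1 and 2 the lowest, while in Atf3 NPP_herb replicate 3 was far below replicates 1 and 2. P2rx3, an ATP-gated channel of nociceptors, was at 357, 408 and 460 CPM in NPP_herb, against 433, 450 and 466 CPM in Sham_herb. Replicate 3 was again the highest NPP_herb library. Its log2 fold change was -0.14 ± 0.13 (SE). Runx1, a transcription factor of nociceptor identity, was at 27.2, 34.2 and 33.0 CPM in NPP_herb, against 34.9, 38.1 and 37.3 CPM in Sham_herb. The Runx1 groups did not overlap, with an unadjusted p of 0.0648. Across the sodium channel list, the median level relative to each gene's mean was -0.14, -0.16 and 0.22 in NPP_herb replicates 1, 2 and 3, against 0.05, 0.05 and 0.03 in the sham libraries, on the log2 scale. The slope of a library's log2 levels on log2 gene length followed a similar order. It was 0.038, -0.048 and 0.119 in NPP_herb, against 0.057, 0.086 and 0.058 in Sham_herb. With this slope as a covariate the sodium channel median was 0.0093, with 8 of 14 positive. The median of the 48 injury genes was then 0.18, with 40 positive. The part of gene length in these patterns was not tested further.

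Among other cells of the ganglion, satellite glia genes had a median of 0.10 (11 of 12 positive) and myelin genes of Schwann cells 0.02 (11 of 16 positive). Without NPP_herb replicate 1 these medians were 0.07 for satellite glia genes and -0.13 for myelin genes (2 of 16 positive), and without NPP_herb replicate 3 they were 0.16 for satellite glia genes and 0.15 for myelin genes (14 of 16 positive). Fibroblast and matrix genes had a median of 0.35, with 20 of 21 positive and 4 without overlap between groups, all higher, against 3.18% of all genes. In the fit of the 6 libraries alone 7 of 21 were higher at an unadjusted p under 0.05, against 1.46% of all genes. Fbln1, a matrix glycoprotein, was the only one with an unadjusted p under 0.05 in the fit of all 18 libraries. It was at 14.0, 9.37 and 14.4 CPM in NPP_herb, against 7.40, 9.49 and 9.12 CPM in Sham_herb, so that NPP_herb replicate 2 was inside the sham range. Without NPP_herb replicate 1 the fibroblast median was 0.17, and with replicate 1 left out of both groups it was 0.04, with 13 of 21 positive. Among inflammatory mediators 13 of 19 had a positive log2 fold change, with a median of 0.23, which was 0.02 without NPP_herb replicate 2. Il1b, which encodes interleukin-1 beta, was at 1.72, 6.36 and 0.828 CPM in NPP_herb, against 1.30, 1.44 and 0.621 CPM in Sham_herb, and NPP_herb replicate 2 stood above the rest. Ccl2, a chemokine that draws monocytes, was at 14.2, 24.2 and 16.5 CPM in NPP_herb, against 17.4, 13.9 and 15.2 CPM in Sham_herb. Skeletal muscle genes, which mark tissue outside the ganglion, had a median of 0.81 (9 of 11 positive) and a summed level of 7.69 to 14.6 FPKM in NPP_herb, against 6.69 to 7.96 FPKM in Sham_herb. NPP_herb replicate 3 again held the most, and without it the median was -0.0043, with 5 of 11 positive, against 1.31 without Sham_herb replicate 2.

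**Figure D4:**
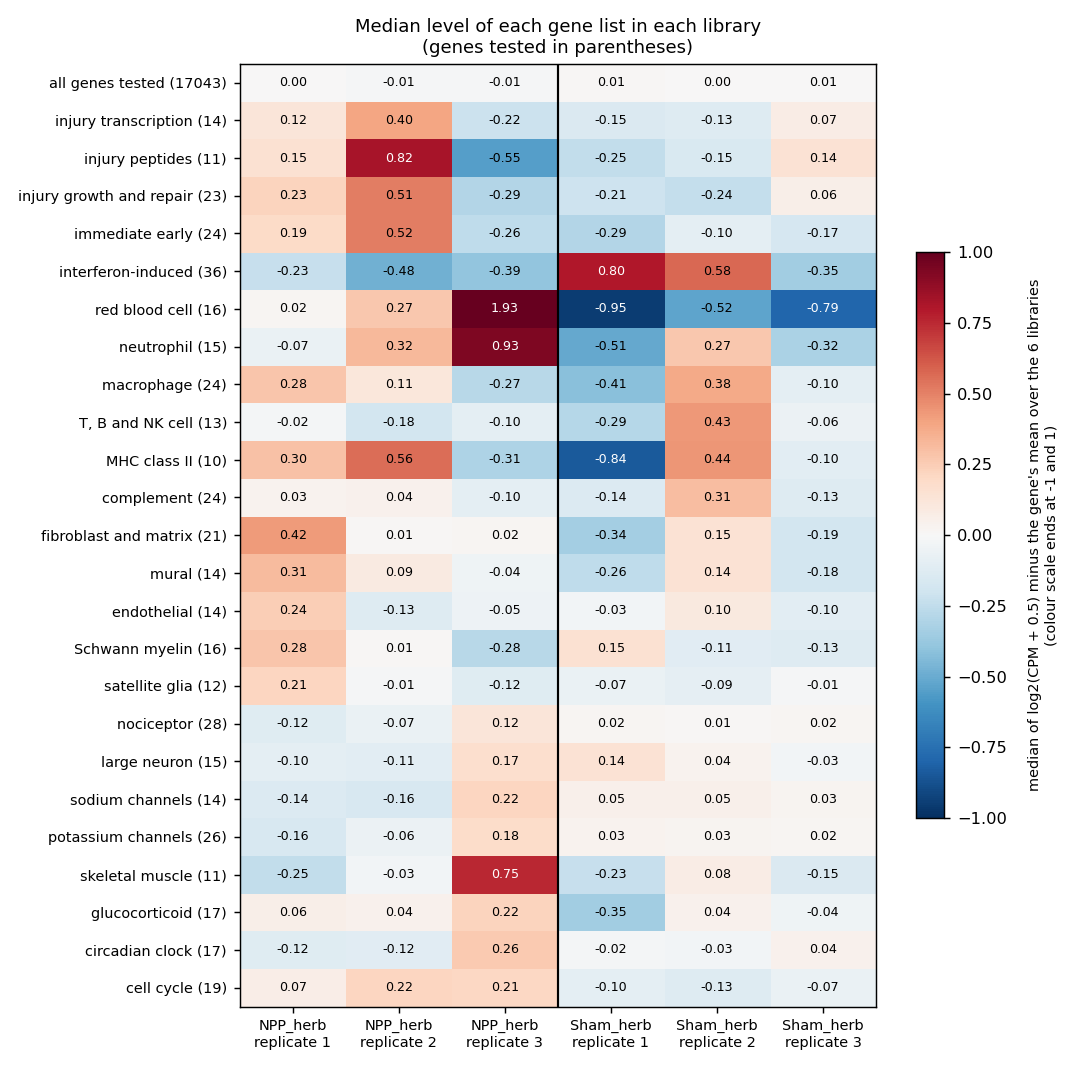
Heat map of the median level of 24 gene lists and of all tested genes (rows, with the number of genes tested) in the 3 NPP_herb libraries (left) and the 3 Sham_herb libraries (right). Cells give the median over genes of the log2(CPM + 0.5) level relative to the mean of that gene in the 6 libraries, in red where above and in blue where below that mean. Injury and immediate early lists were highest in NPP_herb replicate 2, red cell and neutrophil lists in NPP_herb replicate 3, and the interferon list in Sham_herb replicates 1 and 2.

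The same model effect was measured in rats given solvent, in libraries that this comparison does not share. Across 17043 genes the log2 fold change of NPP_herb over Sham_herb correlated with that of NPP_solvent over Sham_solvent at r = -0.0996 (Spearman's rho -0.0954), and 7794 genes (45.7%) had the same sign. Genes are not independent replicates, and both contrasts come from 1 model with shared scaling, so these values are a description. The injury genes had the same sign in both contrasts in 38 of 48, with medians of 0.32 under herb and 0.27 under solvent. Skeletal muscle genes had medians of 0.81 under herb and 0.22 under solvent. Opposite signs of the herb and solvent medians were common among the lists, in part with medians near 0. Fibroblast and matrix genes had medians of 0.35 under herb and -0.28 under solvent, and genes of pericytes and smooth muscle 0.19 and -0.20. Glucocorticoid-responsive genes had 0.26 and -0.12, and sodium channel genes -0.03 and 0.20. The 4 lists that follow are therefore not alone in this. Interferon genes had a median of -0.88 under herb, with 0 of 36 positive, and 0.41 under solvent, with 35 of 36 positive. Red cell genes had medians of 2.78 under herb and -1.63 under solvent, neutrophil genes 0.89 and -1.04, and immediate early genes 0.38 and -0.12. Hemoglobin genes took 0.00210%, 0.00507% and 0.0155% of reads in NPP_solvent replicates 1, 2 and 3, against 0.0113%, 0.00265% and 0.0815% in Sham_solvent. Sham_solvent replicate 3 thus stood far above the other solvent libraries of this contrast. The share was 0.00938%, 0.0763% and 0.0127% in Ctrl, and 0.00123%, 0.0743% and 0.000455% in Ctrl_solvent.

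The difference between the herb and solvent contrasts was tested gene by gene in the same model. With edgeR's quasi-likelihood test, 0 of 17043 genes passed at an adjusted p under 0.05 (0%), with 0.830 as the smallest adjusted p. An unadjusted p under 0.05 was seen in 580 genes (3.4%). In the solvent contrast itself 0 genes passed the adjusted test (0%), and 967 (5.67%) had an unadjusted p under 0.05. DESeq2 called 3 genes, Gjb2, Igf2 and LOC120102105. Gjb2 averaged 1.85 ± 0.532 CPM in NPP_solvent and 4.16 ± 0.967 CPM in Sham_solvent (SD, 3 libraries each), so that the NPP libraries were lower under solvent and higher under herb. Igfbp2 averaged 38.2 ± 11.2 CPM in NPP_solvent and 55.9 ± 19.0 CPM in Sham_solvent, again in the opposite order to herb. Among the 36 interferon genes and the 48 injury genes, 0 and 1 had an unadjusted p under 0.05 for this difference, and among the 16 red cell genes 6 did.

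**Figure D5:**
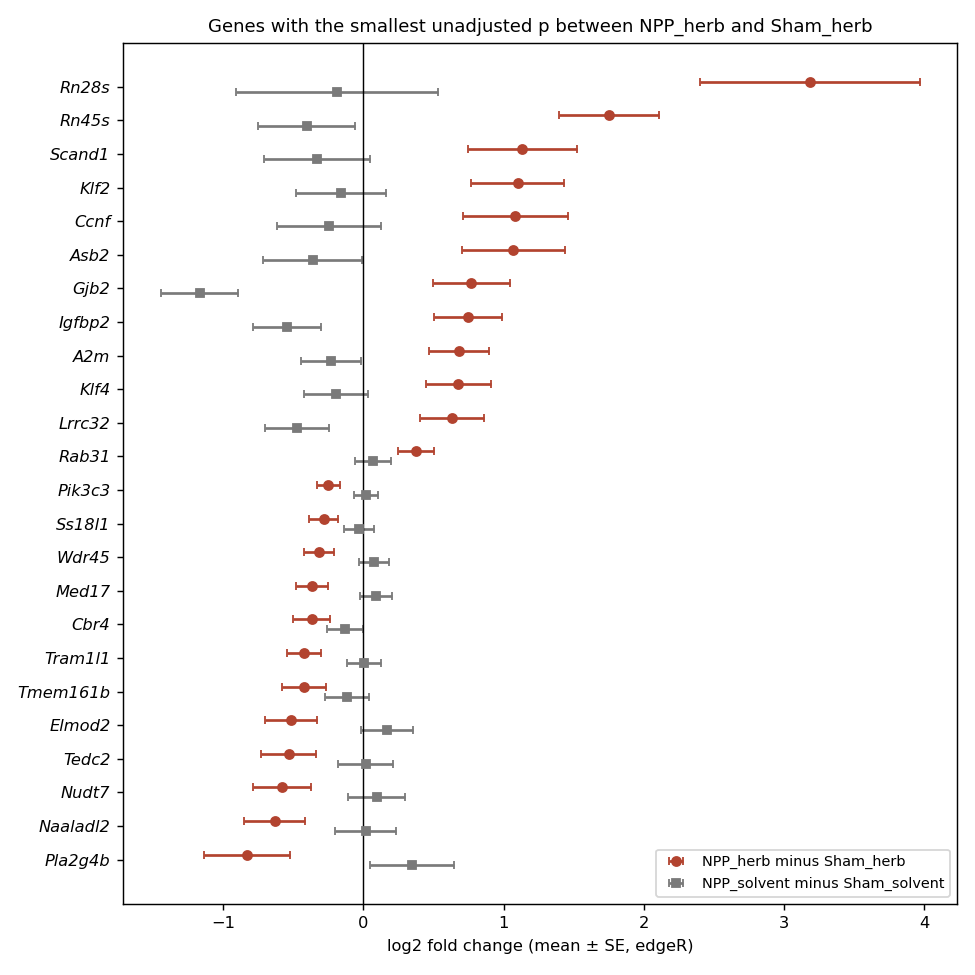
Log2 fold change (mean ± SE from edgeR) of NPP_herb over Sham_herb (red circles) and of NPP_solvent over Sham_solvent (grey squares) for the 24 genes with the smallest unadjusted p under herb that met the naming rule, 12 per direction. The herb values were used to choose the genes. The solvent values of Gjb2, Igfbp2, A2m and Lrrc32 lie below 0, while most of the 12 lower genes are near 0 under solvent.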

How the data were processed

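Gene expression was measured in 18 rat dorsal root ganglion libraries, 6 of which are compared here. Per the labels' protocols, messenger RNA was captured on beads and libraries were made with a stranded kit and read from both ends. The submitters' processing notes list HISAT2, DESeq2 and the genome mRatBN7.2. No source used here names the counter, its strand setting or the annotation, and reads of overlapping or near-identical genes therefore cannot be told apart. The authors deposited a table of raw read counts for 25678 genes and a table of FPKM values, which they scaled by gene length and library size.

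Counts were tested in R 4.3.3 by edgeR 4.0.16 with its quasi-likelihood test (robust dispersion, TMM scaling, filterByExpr, which left 17043 genes), on all 18 libraries with 1 coefficient per group and 12 residual degrees of freedom. P-values were adjusted by Benjamini-Hochberg over all genes tested, with a threshold of 0.05. The same model gave the solvent contrast and the difference of both contrasts. The fit was checked on counts simulated gene by gene from the fitted spread, with changes only in genes with a mean of at least 1 CPM. There it called 69% of genes changed 2-fold and 95% of genes changed 4-fold between these groups, and 11 unchanged genes. The simulation held no differences shared by many genes of a library. These shares therefore do not tell how many real changes the test would miss here. CPM values use the TMM-scaled library size. Levels of lists by library use log2(CPM + 0.5). Alternatives used DESeq2 1.42.0, limma 3.58.1 (voom, and limma-trend on log2(FPKM + 1) and log2(FPKM + 0.1)), other scaling and filters, and left-out libraries. The fit of fewer libraries shares the spread of the remaining groups.

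Named genes were the 12 per direction with the smallest unadjusted p among genes without overlap between groups, with a mean of at least 1 CPM and a symbol that is no placeholder, all tested injury genes, up to 4 genes with the smallest p from each other list, and a fixed set of genes of inflammation, interferon response and pain. Genes outside this rule are said to be so, and some genes that it picked are not reported here. The gene lists and the genes in them were chosen with earlier results of these data known. Start regions were matched by symbol in a RefSeq table on GRCr8, which held 25 of the 36 interferon genes tested. No replicate was counted as a repeat, since chi-square per degree of freedom was at least 12.9 within a group. Replicate numbers did not pair the samples, since deviations of same-numbered libraries correlated at -0.135, -0.151 and -0.117.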

Additional observations from a re-analysis of the deposited data

Results flagged for a closer look

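In 6 of the named genes all NPP libraries lay on one side of all Sham libraries under herb and on the other side under solvent. Over all 17043 genes this happened in 46, with 22 higher under herb and lower under solvent and 24 the reverse, and 51 genes separated the same way in both. The difference of the log2 fold change of NPP over Sham, herb minus solvent, was 0.91 ± 0.30 (SE) for A2m, 1.94 ± 0.39 for Gjb2, 2.18 ± 0.52 for Igf2, 1.11 ± 0.32 for Lrrc32, 5.74 ± 1.40 for Rhd and -0.48 ± 0.16 for Runx1. None passed edgeR's quasi-likelihood test of that difference, with an adjusted p of 0.862 or above. Their unadjusted p in that test ran from 0.000101 (Gjb2) to 0.0087 (Runx1). The genes were chosen for separating in opposite directions in these same values. Small unadjusted p therefore follow in part from the choice and are no separate support. Gjb2 and Igf2 were called for the difference by DESeq2. Igf2, which encodes insulin-like growth factor 2, was at 17.2, 12.8 and 17.5 CPM in NPP_herb, against 7.98, 12.2 and 8.14 CPM in Sham_herb. No group holds the 4 or more libraries that a check for single outlying samples needs.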

How the results depend on the processing

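The count of 0 genes called between NPP_herb and Sham_herb was 2 with DESeq2 (LOC120102105 and Rn45s), and ran from 0 to 2 over left-out libraries, with 2 without NPP_herb replicate 2 (LOC120095951 and LOC120102105, named after their values were seen). The count of 0 for the difference of herb and solvent was 3 with DESeq2, and ran from 0 to 1 over left-out libraries, with 1 (Igf2) without NPP_solvent replicate 1. Genes with an unadjusted p under 0.05 numbered 153 to 591 over all alternatives for the herb contrast and 342 to 2341 for the difference, the most without Sham_solvent replicate 2. With the replicate number as a block, which does not pair these samples, 0 genes were called in both contrasts and 239 had an unadjusted p under 0.05, against 238 without it. Over the 53 genes with values in the text, signs were kept in every alternative except for 9 genes. Over all 221 genes that the naming rule picked, 63 had the other sign in at least 1 alternative, 30 of them without replicate 2 in both groups, and among the 48 injury genes 27 and 20 did. The cause was not tested.

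Log2 fold changes with replicate 2 left out of both groups were -0.11 for Atf3, -0.074 for Ccl2, -0.084 for Gadd45a, -0.076 for Gap43, -0.86 for Npy and -0.39 for Reg3b. With replicate 3 left out of both groups they were -0.040 for Per2, -0.20 for Scn10a and -0.27 for Trpv1. Over single left-out libraries the range was -0.040 to 0.79 for Gadd45a, -0.29 to 5.53 for Npy, -0.11 to 1.33 for Per2, -0.22 to 0.14 for Scn10a and -0.24 to 0.18 for Trpv1. With the gene length slope as a covariate Npy was at -0.10. Scn10a and Trpv1 were at -0.013 and -0.0078 with limma voom, -0.0045 and -0.0058 with the replicate block, -0.017 and -0.023 on log2(FPKM + 1) with and without the filter, and -0.018 and -0.026 on log2(FPKM + 0.1).

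At the depths of 18334197 to 34671490 reads, genes with a few reads, such as Sprr1a and Rhd, were measured with SEs of 1.71 and 0.999 on the log2 scale.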

Other observations

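Clock and hormone-responsive genes varied by library. Per2, a light- and hormone-responsive repressor of the circadian clock, was at 3.39, 3.74 and 15.3 CPM in NPP_herb replicates 1, 2 and 3, against 4.08, 3.23 and 4.22 CPM in Sham_herb. Dbp, a clock output factor, was at 16.8, 24.5 and 42.4 CPM in NPP_herb, against 25.3, 14.7 and 14.9 CPM in Sham_herb. NPP_herb replicate 3 was thus the highest library in both, while over the 17 clock genes tested 10 had a positive log2 fold change, with a median of 0.09. Without NPP_herb replicate 3 that median was -0.06, with 6 of 17 positive. Glucocorticoid-responsive genes had a median of 0.26, with 14 of 17 positive and no unadjusted p under 0.05 in edgeR, and a median of 0.15 without Sham_herb replicate 1. Ddit4, a stress-induced inhibitor of mTOR signalling, was at 48.1, 69.7 and 78.4 CPM in NPP_herb, against 43.4, 52.4 and 47.9 CPM in Sham_herb.

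Cell cycle genes had a median log2 fold change of 0.32, with 16 of 19 positive, and 0.06 in the solvent contrast. The herb median was 0.14 without NPP_herb replicate 3 and 0.08 to 0.14 on the log2 FPKM scales. Birc5, which encodes the mitotic protein survivin, was at 3.06, 4.74 and 2.57 CPM in NPP_herb, against 2.69, 1.44 and 1.60 CPM in Sham_herb, with an unadjusted p of 0.0211. Ube2c, which helps degrade mitotic cyclins, was at 0.860, 1.28 and 1.48 CPM in NPP_herb, against 0.692, 0.379 and 0.523 CPM in Sham_herb, with an unadjusted p of 0.0315. Cholesterol synthesis genes had a median of -0.03 (9 of 22 positive), targets of NRF2 and the aryl hydrocarbon receptor 0.02 (8 of 14 positive) and heat shock genes 0.01 (10 of 17 positive). Cyp1b1, a target of the aryl hydrocarbon receptor, was at 22.6, 27.3 and 23.2 CPM in NPP_herb, against 17.6, 19.1 and 20.8 CPM in Sham_herb. Its groups did not overlap, and its unadjusted p was 0.0566.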
